A study of Arabidopsis thaliana with 16 samples.

Results

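The strongest protein protected sites (PPSs) of *Arabidopsis* leaf nuclei are the 2744 sites with an enrichment score of 20 or more, of 71928 distinct PPSs in all (3.81%). They were selected on that score, the largest where a PPS carries several, and PPSs with the same start and end in different lists were counted once. The PPSs came from protein interaction profile sequencing (PIP-seq), in which crosslinked nuclei are treated with an RNase so that RNA under bound proteins is protected, and the reads are set against libraries whose proteins were removed before the RNase (structure-only libraries). The plants were of genotype UBQ10:NTF/ACT2p:BirA in the Columbia-0 ecotype, which carries a biotin-tagged protein in the nuclear envelope so that nuclei bind to streptavidin beads, and rosette leaves were taken at 4 weeks from salt-treated and control-treated plants. The tag and the biotin ligase were driven by the UBQ10 and ACT2 promoters, so nuclei of different leaf cell types were pooled. Each treatment had 2 replicates, each replicate had 4 libraries, and each replicate gave 1 list of PPSs at a false discovery rate of 5%. All 7 leaf marker genes, such as RCA and CAT3, had scored transcripts and PPSs, whereas no transcript of the 5 seed storage genes was scored and 1 of them had a PPS.

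An mRNA is bound by proteins from transcription onward. In the nucleus, splicing factors hold the exon-intron boundaries of the pre-mRNA, serine/arginine-rich proteins hold exons, and other RNA-binding proteins (RBPs) cover the rest until the mRNA is exported. A footprint of this kind shows where RNA was shielded, but not which protein shielded it. The enrichment score sets the reads of protein-containing libraries over those of structure-only libraries at the same position.

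The sequences that follow show both kinds of strong PPS, those inside exons and those that run across an exon-intron boundary. Each is written on the strand of its gene from the 5′ end, with exon bases in lower case and intron bases of the RefSeq gene model in capitals. The bases are from the RefSeq TAIR10.1 assembly at the TAIR10 positions of the lists, and untranslated bases were left out. The PPSs in AT5G62560, a U-box protein, and PRR7, a component of the circadian clock, lay in coding exons. Those in BZIP60, a transcription factor of the unfolded protein response, FC1, a ferrochelatase of haem synthesis, CBP60G, a calmodulin-binding regulator of immunity, ARR4, a cytokinin response regulator, and DTX35, an efflux carrier, held an exon and part or all of an intron.
AT5G62560 (chr5:25111403-25111609, + strand): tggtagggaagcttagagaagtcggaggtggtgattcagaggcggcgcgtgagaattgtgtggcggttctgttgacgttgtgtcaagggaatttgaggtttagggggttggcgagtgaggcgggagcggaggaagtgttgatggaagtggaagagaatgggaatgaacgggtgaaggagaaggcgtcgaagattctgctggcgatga
BZIP60 (chr1:16136841-16137080, − strand): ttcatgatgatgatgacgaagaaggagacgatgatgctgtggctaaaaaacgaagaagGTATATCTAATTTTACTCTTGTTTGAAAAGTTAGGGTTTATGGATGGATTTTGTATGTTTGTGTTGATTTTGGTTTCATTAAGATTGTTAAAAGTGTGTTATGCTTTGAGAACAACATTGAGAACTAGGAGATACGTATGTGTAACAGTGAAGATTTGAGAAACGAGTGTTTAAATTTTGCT
FC1 (chr5:9096972-9097212, + strand): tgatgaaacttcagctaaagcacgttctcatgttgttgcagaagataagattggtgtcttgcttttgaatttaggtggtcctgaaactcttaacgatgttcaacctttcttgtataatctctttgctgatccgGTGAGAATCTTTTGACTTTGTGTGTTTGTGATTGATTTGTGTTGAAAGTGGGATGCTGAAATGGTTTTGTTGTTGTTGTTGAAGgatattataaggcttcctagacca
CBP60G (chr5:9477041-9477181, + strand): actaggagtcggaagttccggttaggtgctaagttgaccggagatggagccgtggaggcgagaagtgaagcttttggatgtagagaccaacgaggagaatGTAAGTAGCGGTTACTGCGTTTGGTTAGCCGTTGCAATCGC
ARR4 (chr1:3443459-3443533, − strand): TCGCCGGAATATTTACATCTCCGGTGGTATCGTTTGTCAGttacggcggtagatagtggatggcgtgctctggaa
PRR7 (chr5:638601-638807, − strand): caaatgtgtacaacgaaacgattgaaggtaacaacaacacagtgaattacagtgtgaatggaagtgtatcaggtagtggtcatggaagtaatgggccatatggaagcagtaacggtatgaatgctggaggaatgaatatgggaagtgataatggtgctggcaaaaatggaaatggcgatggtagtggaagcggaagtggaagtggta
DTX35 (chr4:13076953-13077061, − strand): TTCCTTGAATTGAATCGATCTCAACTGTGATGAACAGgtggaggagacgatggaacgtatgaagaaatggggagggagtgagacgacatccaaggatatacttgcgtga
In FC1 the PPS took in a whole intron of 84 bases with exon on both sides. In BZIP60, 182 of 240 bases were intronic, and in ARR4 it was 40 of 75. The GC content of the printed sequences was between 32.9% in BZIP60 and 54.1% in AT5G62560.

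The 4 lists did not hold independent calls, which bears on every count of lists. Of the strongest PPSs, 632 were in both salt-treated lists, and 630 of these (99.7%) had the same score to the last digit in both. Between the control-treated lists this was so for 741 of 757 (97.9%), and between salt-treated replicate 1 and control-treated replicate 1 for 529 of 562 (94.1%). The strand also varied between lists. Of the PPSs shared by the salt-treated lists, 631 of 632 were on opposite strands, whereas 753 of 757 shared by the control-treated lists were on the same strand. In all, 939 strongest PPSs were listed on both strands somewhere, so genes and regions were assigned on either strand. A site given by several lists was therefore not counted as replicated. Read counts are not part of the lists, and the depth at a PPS is unknown.

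A score of 20 or more was about equally frequent in every list. It was reached by 1323 PPSs (4.08%) in salt-treated replicate 1, 1003 (3.83%) in salt-treated replicate 2, 1326 (3.73%) in control-treated replicate 1 and 1228 (4.37%) in control-treated replicate 2. The median score of these PPSs was 23.54 in salt-treated replicate 1 and 23.6 in salt-treated replicate 2, and 23.54 in both control-treated lists. The treatments thus overlapped in both measures, and with 2 lists against 2 an exact permutation test cannot give a two-sided p below 0.33. Over all distinct PPSs the median score was 8.20. Scores took only 175 different values among the strongest PPSs, with 239 PPSs at 20.07. Just inside the threshold, at 20.05, were PPSs in CAT3, a catalase, CK1, a choline kinase, and AT2G33830. Just outside it, at 19.98, were PPSs in ACA1, TSA1 and a chromosome 1 transcript with no gene in the annotation used.

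The PPS with the largest score lay in SPL13A, a transcription factor of the SBP family, at chr5:20583764-20583974, where it overlapped 5′ UTR, CDS and intron. It was given by salt-treated replicate 1 at 59.38 and by no other list. AT5G62560 followed at 58.54 in salt-treated replicate 2 alone, and BZIP60 at 58.5 in both salt-treated lists and in neither control-treated list. A PPS at chr2:10543073-10543191 in the lncRNA gene AT2G24755, antisense to the transcribed pseudogene AT2G24750, scored 56.46 in salt-treated replicate 1 and in both control-treated lists. Each of these PPSs had the same score in every list that gave it, and what differed was whether a list gave it with these ends. In BZIP60 the absence was one of exact ends, since all 6 strongest PPSs of the gene overlapped a control-treated PPS of 20 or more.

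**Figure D1:**
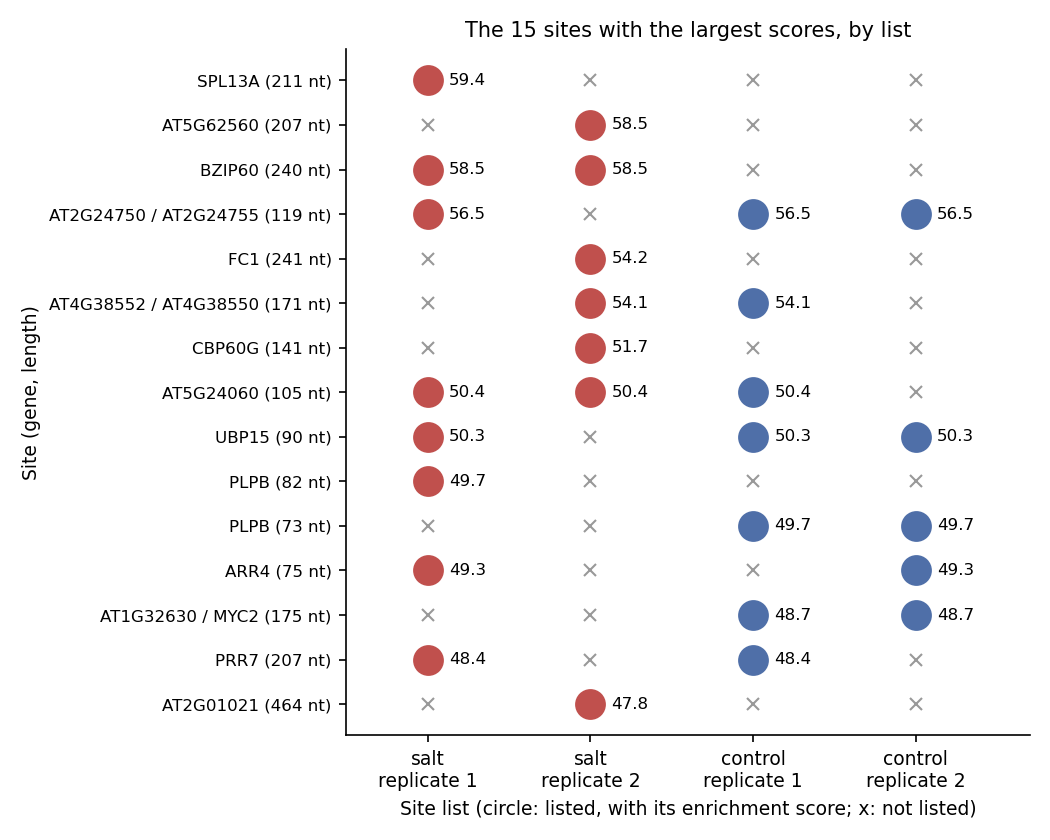
Enrichment scores of the 15 PPSs with the largest scores, 1 per row with gene and length, in the salt-treated and control-treated lists. A circle with its score marks a list that gave the PPS and a cross one that did not. The top row, SPL13A, has a single circle at 59.4, and the last row, AT2G01021, ties at 47.77 with PPSs of DTX35, which is in all 4 lists, and AT5G24450 that are not drawn.

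FC1 (54.18) and CBP60G (51.71) were given by salt-treated replicate 2 alone. The PPS at chr4:18027169-18027339 in AT4G38550 and its antisense lncRNA AT4G38552 scored 54.14 in salt-treated replicate 2 and in control-treated replicate 1, although the call came from the ssRNase libraries in salt-treated replicate 2 and from the dsRNase libraries in control-treated replicate 1. AT5G24060, a pentatricopeptide repeat gene, had 50.41 in both salt-treated lists and in control-treated replicate 1. UBP15, a ubiquitin protease, had its PPS of 90 nt at 50.34 in salt-treated replicate 1 and in both control-treated lists. PLPB, a blue light receptor with PAS and LOV domains, had 2 overlapping PPSs inside an intron, both at 49.7. The longer, of 82 nt, was in salt-treated replicate 1, and the shorter, of 73 nt with the same end coordinate, was in both control-treated lists. Counted by identical start and end, these are PPSs of different treatments, though all bases of the shorter lie in the longer. ARR4 (49.31) was given by salt-treated replicate 1 and control-treated replicate 2, and PRR7 (48.39) by replicate 1 of each treatment.

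Of the strongest PPSs, 65 (2.37% of 2742 searched on the nuclear and chloroplast genomes) had a sequence that occurs more than once in the genome. SPL13A was one of them, with 2 copies. The ribosomal protein L6 genes AT1G33120 and PGY2 each had a PPS of 83 nt in an intron, at 47.5 in both salt-treated lists and in neither control-treated list, and their sequences were identical, so the reads cannot be told apart. The absence was one of exact ends, since both control-treated lists gave a longer PPS of 234 nt at 37.78 that contained the one in PGY2, and a control-treated PPS of 16.19 overlapped the one in AT1G33120. The PPS of 464 nt in AT2G01021 (47.77 in salt-treated replicate 2) and that of 190 nt in the RNA gene AT3G06365 (40.02 in all 4 lists) also had 2 copies each.

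Strong PPSs were more often at introns than the rest. Of the strongest PPSs on scored mRNAs, 1015 of 2140 touched an intron (47.4%, 95% Wilson interval 45.3–49.5%), against 12484 of 53182 of the rest (23.5%, 23.1–23.8%). Wilson intervals here cover counting error only. Most of this lay at boundaries: 837 of all 2744 strongest PPSs crossed an exon-intron boundary (30.5%), against 11.6% of the rest. PPSs wholly inside introns made up 5.98% (5.15–6.93%) of the strongest PPSs and 5.83% (5.66–6.01%) of the rest, with overlapping intervals. With RefSeq exons in place of the scored transcripts, 35.5% of the strongest PPSs and 17.2% of the rest held bases that were intronic in every isoform.

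The share moved with the score itself, outside the threshold too. Of all PPSs, 9.18% crossed a boundary under a score of 10, 16.2% from 10 to 15, 23.6% from 15 to 20, 29.6% from 20 to 30 and 34.7% from 30 up. The 5′ splice site, at the start of the intron, was inside 24.0% (22.2–25.8%) of the strongest PPSs on scored mRNAs, against 7.49% of the rest. The 3′ splice site was inside 21.5% (19.8–23.3%), against 8.30%. The rest thus held the 3′ splice site slightly more often than the 5′ splice site, and the strongest PPSs the reverse, with overlapping intervals for the strongest. Both ends of 1 intron were inside 77 strongest PPSs (3.60%), against 0.325% of the rest. A PPS that holds both ends must be longer than the intron, and strong PPSs were longer. These splice-site shares were not taken within classes of length.

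The introns touched by strong PPSs had a median length of 112 nt (quartiles 88 and 254 nt), against 140 nt (92 and 379 nt) for the rest and 101 nt over all introns of scored mRNAs by isoform. The PPS held a median of 46 bases of the intron, against 36 in the rest. First introns made up 23.9% of those touched by strong PPSs and 27.0% of those touched by the rest. In 71 strongest PPSs (7.00%) the intronic part was exon in another isoform, against 8.77% of the rest.

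Longer PPSs have more room to reach a boundary, and strong PPSs were longer. Their median length was 89 nt (quartiles 68 and 124 nt), against 54 nt (42 and 72 nt) for the rest, and it was 50 nt under a score of 10 and 98.5 nt from 30 up. The intron share was therefore also taken within classes of length. At 75 to 99 nt, 51.3% (47.2–55.4%) of the strongest PPSs on scored mRNAs touched an intron, against 35.4% (33.8–37.1%) at scores from 10 to 20 and 25.8% (24.5–27.2%) under 10. At 30 to 49 nt the strongest, at 22.1% (15.9–30.0%), overlapped the 17.8% and 18.4% of the weaker bands, so the difference was seen from 50 nt up.

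**Figure D2:**
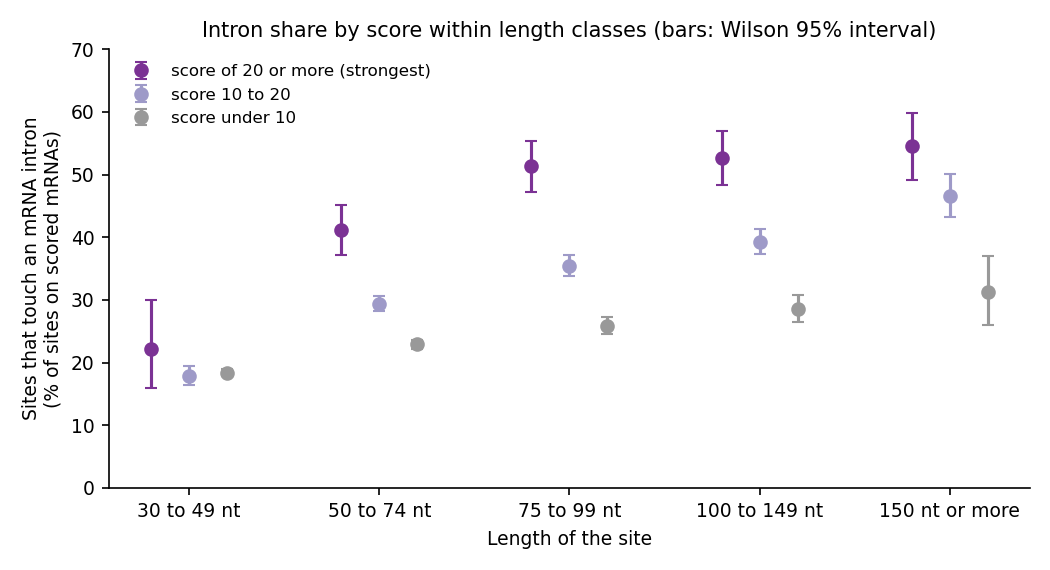
Share of PPSs on scored mRNAs that touch an intron, by length class on the x axis, for the strongest PPSs and for scores of 10 to 20 and under 10. Points are shares in percent and bars Wilson intervals at the 95% level. From 50 nt up the strongest PPSs lie above both weaker bands, with 41.1% against 29.4% and 22.9% at 50 to 74 nt, and at 150 nt or more their interval overlaps that of the band from 10 to 20.

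The share was near the same in every list. Among PPSs on scored mRNAs that reached 20 in the list, introns were touched by 47.7% and 50.7% in salt-treated replicates 1 and 2 and by 44.9% and 47.8% in control-treated replicates 1 and 2, against 26.1% of the rest in both salt-treated lists and 21.9% and 24.4% in the control-treated lists. PPSs given by 1 list alone by exact ends were also taken. They were not all separate calls, since 300 of the 1194 strongest among them (25.1%) overlapped a PPS of another list with the same score. In PPSs given by 1 list alone, introns were touched by 49.8% and 55.8% of the strongest in the salt-treated lists and 41.1% and 47.8% in the control-treated lists, against 25.1%, 27.2%, 18.7% and 21.0% of the rest of the same lists. The strongest were higher in each of these 4 lists, which share calls, and the lists of the 2 treatments did not overlap here, nor did they for the rest, but the intervals of salt-treated replicate 1 (43.3–56.3%) and control-treated replicate 2 (41.4–54.3%) did.

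The CDS was the region most often under a strong PPS, as it was for PPSs in general. It was overlapped by 1804 strongest PPSs (65.7%, 63.9–67.5%) and by 64.3% of all distinct PPSs. The 5′ UTR was overlapped by 189 (6.89%, against 6.14% of all) and the 3′ UTR by 162 (5.90%, against 5.85%). Start codons lay in 95 strongest PPSs (3.46%, 2.84–4.21%), against 2.37% of the rest, and stop codons in 48 (1.75%, against 1.46%). The codon shares were not taken within classes of length. No scored transcript was found under 568 strongest PPSs (20.7%), most of which lay in genes all the same: with RefSeq CDS the share was 84.0%, against 84.4% of all distinct PPSs.

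Protein-coding genes of either strand held 2640 of the strongest PPSs (96.2%, 95.4–96.9%), slightly below the 97.1% of all distinct PPSs. On the strand that the lists give, it was 80.0%. With each gene cut into 3 equal parts from its 5′ end, 28.2% lay in the first, 42.2% in the middle and 29.6% in the last, against 30.4%, 39.6% and 30.1% for the rest. RNA genes without a protein were few. Counting every gene type under a PPS, lncRNA genes were under 76 strongest PPSs (2.77%, against 2.02% of the rest), 7 of them in no gene of another type. Genes of the type misc_RNA, which has no finer label, were under 19 (0.692%, against 0.265%), 16 of them in no gene of another type. Most of the 19 came from few genes, with 8 in AT3G06365, 3 in AT2G03875 and 2 in AT2G03865. Several PPSs of these genes had a sequence that occurs more than once in the genome. Genes of the type ncRNA were under 14 (0.510%, against 0.238%), snoRNA genes under 8 (0.292%, against 0.366%) and snRNA genes under 1. The chloroplast genome had 10 strongest PPSs (0.364%, 0.198–0.670%, against 0.179% of all distinct PPSs) and the mitochondrial genome 2, and 41 lay in no annotated gene (1.49%, against 1.44%).

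Strong PPSs were joined from several calls more often. A dsRNase call and an ssRNase call were joined in 23.2% and 18.8% of the strongest PPSs in the salt-treated lists and in 19.5% and 20.9% in the control-treated lists, against 7.61% and 5.81% of all PPSs in the salt-treated lists and 4.11% and 6.75% in the control-treated lists. Joined PPSs have more scores from which the largest is taken, so this share is partly set by the rule. The dsRNase libraries gave most of the leading calls of strong PPSs in each list, by a narrow margin in control-treated replicate 1. The leading call came from dsRNase in 56.3% and 65.5% of the strongest PPSs of the salt-treated lists and in 50.4% and 56.3% of those of the control-treated lists, against 59.5% and 54.8% of all PPSs in the salt-treated lists and 60.4% and 45.5% in the control-treated lists.

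Strong PPSs were poorer in GC and, within the CDS, richer in purines. The median GC content was 41.1% (quartiles 36.9% and 45.1%), against 43.5% (38.7% and 48.1%) for the rest, and it was lower in each band from 43.8% under a score of 10 to 40.4% from 30 up. Among PPSs that touched only CDS, in 1 gene, the share of A and G on the strand of the gene had a median of 60.3% in 887 strongest PPSs and 56.5% in 33229 others. At least 70% of the bases were purines in 110 of them (12.4%), against 8.30%.

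Of the motifs searched on both strands in the 51 bases around the middle of a PPS, GAAGAA, a purine motif of exonic splicing enhancers, was in 347 of 2742 strongest PPSs (12.7%, 11.5–14.0%), against 10.7% of all distinct PPSs in windows of the same length. CTTCTT was in 9.92% (8.86–11.1%), against 8.97% of all, which lies in that interval, and since both strands were searched, the bases GAAGAAG match both of these motifs. TGTANATA, the motif of Pumilio proteins with N for any base, was in 30 (1.09%, 0.767–1.56%), against 0.636%. TTTTTT (3.79%, against 3.57%) and GGACT, one form of the N6-methyladenosine consensus (5.76%, against 6.59%), also lay within the counting interval of the strongest PPSs. A match here says only that the letters are present.

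The structure score is the authors' log ratio of double-stranded over single-stranded read coverage, scaled to the mean of the transcript, with replicates merged, so each treatment has 1 value per base. The structure-only libraries behind it are also the denominator of the enrichment score, so the measures share reads. Strong PPSs lay in less structured RNA. Over 1976 strongest PPSs with at least 10 scored bases, the median score was −0.25 in salt-treated and −0.37 in control-treated tissue, against −0.13 and −0.24 for the rest. Set against the 100 nt of spliced RNA on each side, the PPS differed by a median of −0.27 in salt-treated and −0.32 in control-treated tissue. It was below its flanks in 67.2% of strongest PPSs in salt-treated and 69.8% in control-treated tissue, against 58.6% and 61.5% for the rest.

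**Figure D3:**
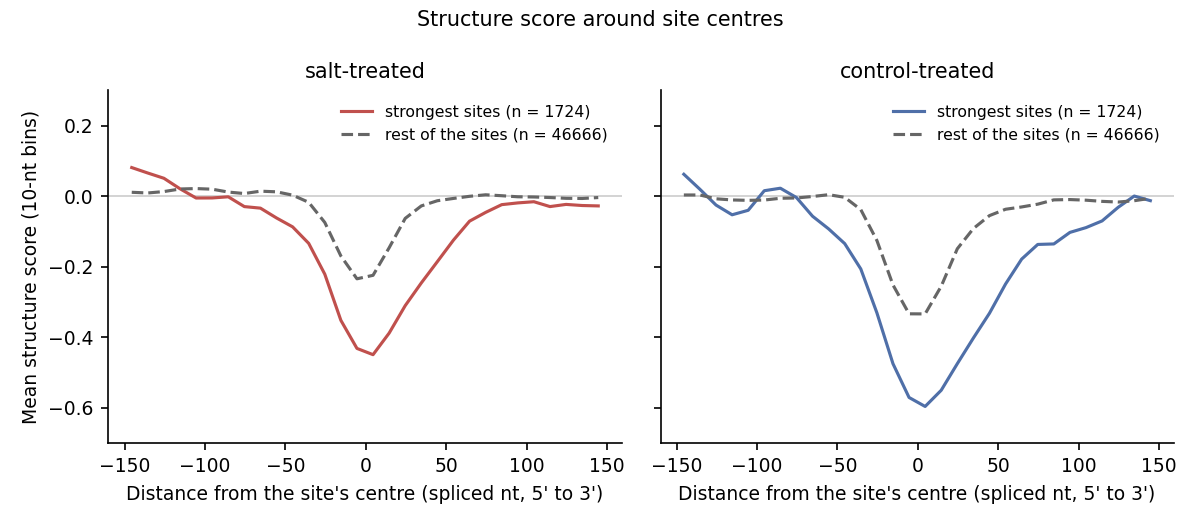
Mean structure score in bins of 10 nt against the distance from the centre of the PPS along the spliced mRNA, 5′ to 3′, in salt-treated (left) and control-treated (right) tissue. Solid lines are the strongest PPSs (n = 1724) and dashed lines the rest (n = 46666), for PPSs whose centre is exonic. The dip at the centre reaches −0.45 in salt-treated and −0.60 in control-treated tissue for the strongest PPSs, against −0.23 and −0.33 for the rest, and it is wider.

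The dip was deeper, and it was also wider on both sides, more so on the 3′ side. At 50 to 59 nt downstream of the centre, the strongest PPSs had a mean of −0.12 in salt-treated and −0.25 in control-treated tissue, while the rest were at −0.01 and −0.04. At 60 to 51 nt upstream the strongest had −0.06 and −0.09, while the rest were at 0.01 and 0.004. The strongest PPSs are longer, and the width of the dip was not taken within a length class. Among PPSs of 50 to 74 nt, the median difference from the flanks was −0.31 in salt-treated and −0.36 in control-treated tissue for the strongest, against −0.12 and −0.19 at scores under 10, so the greater depth was also seen at one length. Salt-treated minus control-treated, the median difference within strong PPSs was 0.13 (order-statistic interval 0.10 to 0.15, counting error only), and 0.11 over all distinct PPSs. Among strong PPSs it was 0.14 in those of salt-treated lists only, 0.14 in those of control-treated lists only and 0.08 in those of both. For the rest these values were 0.13, 0.11 and 0.07.

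By identical start and end, 912 strongest PPSs were in salt-treated lists only (33.2%), 1019 in control-treated lists only (37.1%) and 813 in both (29.6%). Over all distinct PPSs these shares were 33.6%, 39.7% and 26.7%, so the strongest were spread over the treatments much as PPSs in general. All 4 lists gave 182 (6.63%, against 5.15% of all), and 1194 were in 1 list. The count depended on exact ends. When an overlap of 1 nt on either strand was enough, 177 were in salt-treated tissue only, 166 in control-treated tissue only and 2401 (87.5%, 86.2–88.7%) in both. Over all distinct PPSs, which are shorter, 16.8% were in salt-treated tissue only, 19.3% in control-treated tissue only and 63.9% in both. At 75 to 99 nt, 86.3% (83.6–88.5%) of the strongest PPSs and 70.4% (69.4–71.3%) of the rest were in both.

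**Figure D4:**
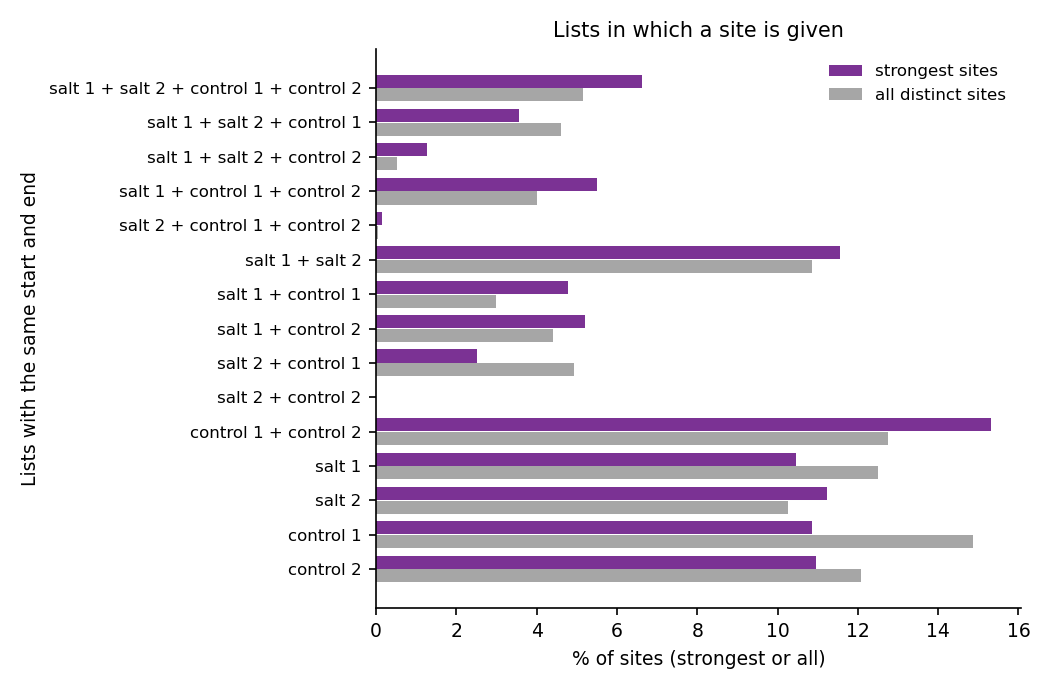
Share of the strongest PPSs and of all distinct PPSs, in percent on the x axis, for each combination of lists with the same start and end. Salt and control with a number stand for the list of that replicate. Both control-treated lists together hold the largest share of strongest PPSs (15.3%), while salt-treated replicate 2 with control-treated replicate 2 alone hold none.

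Of the 912 PPSs of salt-treated lists only, 735 (80.6%) overlapped a control-treated PPS at other ends, 343 of them one with a score of 20 or more. Over all 24183 PPSs of salt-treated lists only, 50.1% did. Of the 1019 of control-treated lists only, 853 (83.7%) overlapped a salt-treated PPS, 395 of them at 20 or more, against 51.4% of all 28550 PPSs of control-treated lists only. The median score of the best overlapping PPS was 18.4 in both directions. Most strong PPSs with ends seen in 1 treatment therefore overlapped a PPS of the other, and more often than PPSs in general, which are shorter.

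The 5 PPSs with the largest scores among those in all 4 lists were those of DTX35 (47.77 in each), ICME-LIKE2, a methylesterase-like protein (45.16), ROF1, an FKBP immunophilin (42.29), MORF3, an organelle RNA editing factor (40.07), and AT3G06365 (40.02). All 4 lists gave the same score for each of them. ROF1, whose PPS of 85 nt lay in the CDS, had structure scores of −1.31 in salt-treated and −0.68 in control-treated tissue, with flanks at 1.21 and 0.30. DTX35 had −1.81 in salt-treated and −0.58 in control-treated tissue.

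The 5 with the largest scores in both salt-treated lists only were those of BZIP60 (58.5), AT1G33120 and PGY2 (47.5 each), the lipase-like gene AT1G29670 (42.64) and CDKC2, a kinase of RNA polymerase II (42.29). Those in both control-treated lists only were PLPB (49.7), AT1G32630 with MYC2, the jasmonate transcription factor on the opposite strand (48.73), ACA1, a calcium pump (45.33), UPL2, a ubiquitin ligase (44.64), and the disease resistance gene AT1G61100 (43.18). Of these 10, CDKC2 on the salt-treated side and AT1G32630 with MYC2 and UPL2 on the control-treated side overlapped no PPS of the other treatment on either strand.

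The number of PPSs of any score around such sites differed between lists too. Within 0.5 Mb on either side of the CDKC2 site, the lists held 447 and 368 PPSs in salt-treated replicates 1 and 2 and 85 and 278 in control-treated replicates 1 and 2. Around the site in UPL2 they held 174 and 181 in the salt-treated and 563 and 483 in the control-treated lists. Over longer stretches, from 24 Mb to the end of chromosome 5, the salt-treated lists had 1299 and 1072 PPSs and the control-treated lists 259 and 752, and from 28 Mb to the end of chromosome 1 they had 277 and 472, against 1333 and 1080. Of the 177 strongest PPSs with no control-treated overlap, 30 lay in that part of chromosome 5 and 4 in that of chromosome 1. Of the 166 with no salt-treated overlap, 4 and 10 did. On chromosome 5, this part held 62 and 48 strong PPSs in the salt-treated lists, against 12 and 22 in the control-treated lists. On chromosome 1 it held 7 and 19, against 40 and 41. The share of all distinct strongest PPSs in these parts was not taken. The median share of salt-treated PPSs among all PPSs of the surrounding 1 Mb was 52.3% for these 177, 43.7% for the 166 with no salt-treated overlap and 49.4% for those overlapped in both. The part of this regional difference in the presence of single PPSs was not tested.

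Genes with a strong PPS had more PPSs of any score than genes without. At least 1 strong PPS was found in 1444 of 9487 protein-coding genes with any PPS (15.2%), and 872 of these had a single one. The 1444 genes had a median of 16 PPSs, against 3 in genes without a strong PPS. Their median length was 3222 bp, against 2696 bp. A gene with more PPSs has more chances to hold a strong PPS even at a constant share. The contrast in PPS number therefore cannot show whether strong PPSs gather in such genes. The share of strong PPSs was not taken by number of PPSs per gene. Overlapping strong PPSs merged to 2210 loci, and 990 of the 2744 (36.1%) overlapped another strong PPS.

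AT5G40450, annotated as an A-kinase anchor-like protein on the − strand of chromosome 5 (chr5:16184650-16195888), had the most, with 35 strongest PPSs at 25 separate loci among 165 PPSs (21.2%). They covered 4717 bases, all 35 touched CDS and 1 touched an intron. The lists of salt-treated replicates 1 and 2 gave 6 and 1 of them, and those of control-treated replicates 1 and 2 gave 21 and 9. For PPSs of any score the gene had 71 and 21 in the salt-treated and 69 and 49 in the control-treated lists, so salt-treated replicate 1 had as many PPSs as control-treated replicate 1 and fewer strong ones. The largest score was 25.91 and 21.46 in the salt-treated and 41.07 and 46.67 in the control-treated lists. Of the 35, 33 overlapped a salt-treated PPS of some score and 9 one of 20 or more. These counts include the PPSs that the salt-treated lists gave themselves, 5 in those lists only and 1 in lists of both treatments.

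**Figure D5:**
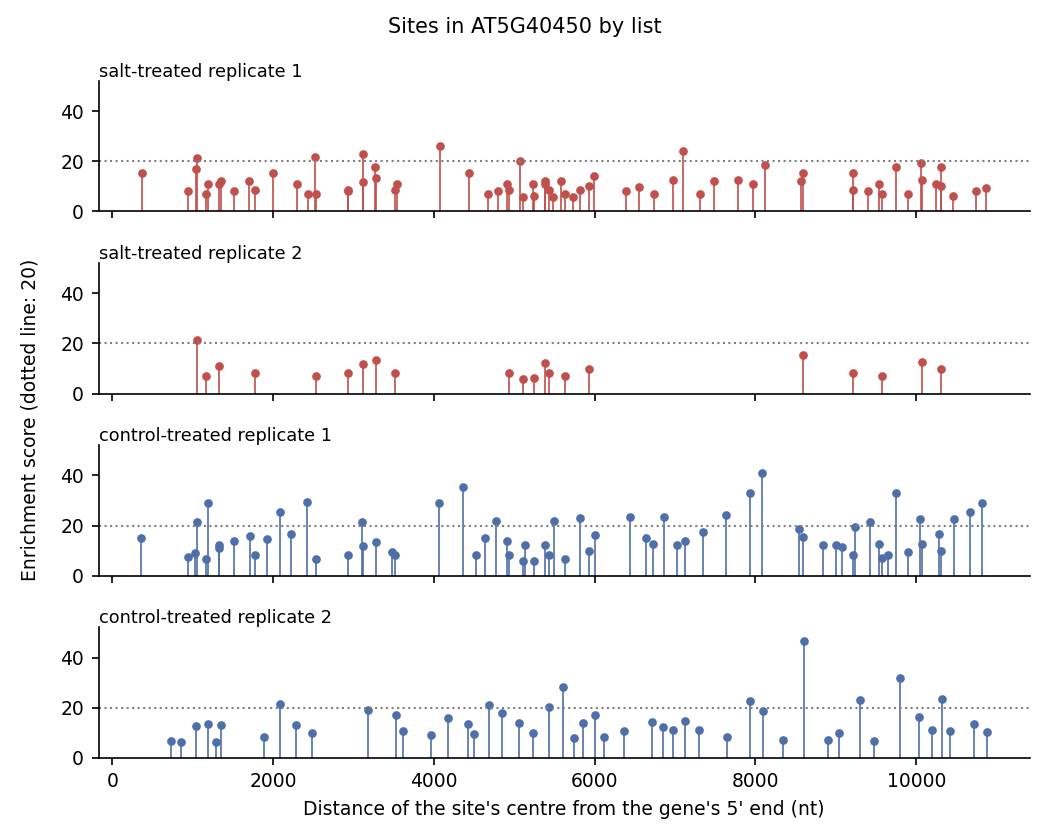
PPSs in AT5G40450 by distance of their centre from the 5′ end of the gene (nt, x axis) and enrichment score (y axis), 1 panel per list, with the threshold of 20 dotted. Salt-treated replicate 2 has 1 PPS above the line and control-treated replicate 1 has 21 strongest PPSs, spread along the gene.

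AT1G61890, a MATE efflux gene, had 16 strongest PPSs at 7 loci among 37 PPSs, 12 of them touching an intron. Salt-treated replicate 1 gave 5 of these and salt-treated replicate 2 none, whereas control-treated replicates 1 and 2 gave 9 and 12. Salt-treated replicate 2 had no PPS of any score in this gene, nor in CLPC1, a chloroplast chaperone, or the receptor-like kinase AT1G56140, all on the − strand. All 16 PPSs of AT1G61890 overlapped a PPS of both treatments. AT1G58602, a disease resistance gene of 19695 bp, had 14, AT5G02940, an ion channel-like gene, 13, and SIP2, of raffinose breakdown, 12. PEN3, an ABC transporter of pathogen defence, AT1G56140 and PLPB had 11 each, and CLPC1 and TSA1, an endoplasmic reticulum protein, had 10 each. In PEN3, 10 of 11 crossed a splice site, and in SIP2 8 of 12 and in PLPB 8 of 11, while AT5G40450 had 1 of 35. The counts of the salt-treated lists went with the strand of the gene. Among these 10 genes, salt-treated replicate 2 had fewer PPSs than salt-treated replicate 1 in each − strand gene (16 against 32 in SIP2). In each + strand gene it had more (63 against 37 in AT1G58602). In each + strand gene control-treated replicate 2 had fewer than control-treated replicate 1 (30 against 82 in AT1G58602). The − strand genes went both ways there, with 20 against 27 in SIP2 and 30 against 21 in AT1G61890. Counts per list in a single gene were therefore not read as gain or loss between treatments.

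ARF2, an auxin response factor at chr5:24910191-24915395, lies in the stretch of chromosome 5 where control-treated replicate 1 had few PPSs. Of its 9 strongest PPSs, salt-treated replicates 1 and 2 gave 4 and 8 and control-treated replicates 1 and 2 gave 0 and 1. For PPSs of any score these lists had 29 and 60 in the salt-treated and 0 and 17 in the control-treated lists. By exact ends, 8 of the 9 were in salt-treated lists only and 1 in a control-treated list only. Counting that 1 itself, 8 overlapped a control-treated PPS. No other of the 9 overlapped a control-treated PPS of 20 or more. ARF2 was named after its values were seen.

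Of 10 genes of the salt and drought response, 9 had a PPS and 5 a strong one, with 19 strong among 146 PPSs (against 3.77% of the PPSs in all nuclear protein-coding genes). LTI78, also called RD29A and induced by dehydration and cold, had 9 strongest PPSs at 6 loci. Salt-treated replicates 1 and 2 gave 4 and 8 of them and control-treated replicates 1 and 2 gave 4 and 1, with largest scores of 37.78 and 43.18 in the salt-treated and 37.78 and 20.43 in the control-treated lists. All 9 overlapped PPSs of both treatments. The dehydrin genes COR47 and ERD10 had 5 at 3 loci and 3 at 2 loci. COR47 reached 42.33, with 2 and 1 in the salt-treated and 3 and 3 in the control-treated lists, while ERD10 had 1 and 0, against 2 and 3. LTI65 had 1 (28.07), in salt-treated replicate 2, and P5CS1, the enzyme that limits proline synthesis, had 1 among 36 PPSs (20.07), in salt-treated replicate 1 and both control-treated lists. SOS1, SOS2, LTI30 and RAB18 had PPSs below 20 only, and no list gave a PPS in SOS3. The counts followed no common direction between treatments in these genes. Those of the salt-treated lists again went with the strand. P5CS1, on the − strand, had 22 PPSs of any score in salt-treated replicate 1 and 0 in salt-treated replicate 2. LTI78, on the + strand, had 13 and 25.

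In the other gene lists, the intervals of the share of genes with a strong PPS held the 15.2% of all nuclear protein-coding genes except for ribosomal proteins and small RNAs. Ribosomal protein genes had them in 11 of 145 genes with a PPS (7.59%, 4.29–13.1%). RNA-binding and splicing proteins had them in 19 of 134 (14.2%, 9.27–21.1%), with 4 in AT1G60900, a large subunit of the U2 auxiliary factor. Light harvesting and photosystem genes had them in 7 of 60 (11.7%), led by PSBR with 3, and heat shock and chaperone genes in 15 of 112 (13.4%), among them BIP2 with 3 and BIP1 with 2. Translation initiation and elongation factors had them in 13 of 78 (16.7%), histones in 2 of 15 and Rubisco with its activase in 3 of 10. Genes of snoRNA, snRNA and SRP RNA, with a median length of 96 nt, had them in 9 of 165 (5.45%, 2.90–10.0%), but 3.41% of their PPSs were strong, near the 3.77% over all nuclear protein-coding genes. For ribosomal protein genes it was 2.78% of 467 PPSs. The snoRNA AT2G17295 had a PPS of 73 nt at 37.78 in both salt-treated lists and a shorter one of 64 nt, ending at the same base, at 37.78 in both control-treated lists.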

How the data were processed

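The submitters' processing notes name cutadapt 1.2.1, TopHat2 2.0.10 and the TAIR10 genome. The authors removed duplicate reads, brought paired libraries to equal size and found PPSs with a CSAR-based caller. The enrichment score in the lists is the authors' deposited score, 1 list per replicate with both RNases joined. The other deposited values, structure scores per base of 15145 mRNA and 1030 lncRNA isoforms, are the authors' generalized log ratios with both replicates merged. Lists and structure tables give no read counts, so depth is unknown and Wilson intervals at the 95% level stand only for counting of PPSs.

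Distinct PPSs were matched by start and end. Regions came from the scored transcripts, with genes and sequences from the RefSeq annotation and genome of TAIR10.1. In that genome, 98.8% of 99093 introns of scored mRNAs had GT and AG ends, no PPS ended beyond its chromosome, and 129 isoforms had a gene not matched there. Every region touched by at least 1 nt was counted. Structure scores were averaged over isoforms. Python 3.11.15, numpy 2.4.6, scipy 1.17.1 and matplotlib 3.10.9 were used, and the steps were tested on simulated data.

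The members, gene lists and motifs were chosen with earlier results of these data known. No test was run on the score that chose the PPSs. Genes were named by rule: the 15 largest scores, the 10 genes with most strong PPSs (ties by bases covered), the 5 largest scores in each class of lists and in RNA genes, and 3 PPSs on each side of the threshold. Others are named from the gene lists, or as examples chosen after their values were seen. Alternatives were thresholds of 15 and 30, the lowest of joined scores, other matches between lists, the listed strand, RefSeq regions, single-score PPSs, each list left out, and other uses of the structure score.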

Additional observations from a re-analysis of the deposited data

How the results depend on the processing

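The number of strongest PPSs was 7479 at a threshold of 15 and 464 at 30, and between 2429 and 2450 with 1 list left out. The share in protein-coding genes was 96.9% at 15, 95% at 30 and 80.0% on the listed strand, with 96.0 to 96.3% when a list was left out. The CDS share was 66.9% at 15, 64.2% at 30 and 84.0% with RefSeq regions, and 65.7 to 65.9% without 1 list. The median length was 81 nt at 15, 98.5 nt at 30 and 83 nt for PPSs with a single score, and 88 to 89 nt without 1 list. In all 4 lists there were 1059 by overlap of 1 nt on either strand, 728 on the same strand and 754 by a reciprocal overlap of 50%, against 182 by identical ends. PPSs in salt-treated lists only numbered 177 by overlap, 2555 at 15 and 171 at 30, and 604 to 1200 without 1 list. Leaving out salt-treated replicate 2 gave the lowest of these, 604. Those in control-treated lists only numbered 166 by overlap, 2760 at 15 and 169 at 30, and 711 to 1438 without 1 list. The salt-treated minus control-treated difference in structure score stayed within its interval under all 3 alternatives (0.13 in each).

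Of 49 alternatives, 28 moved a count by at most 1.5 times or another value by no more than its spread, and no value changed sign. No paired analysis was possible because the results are counts, shares and medians that come from no test, and the structure scores have replicates merged. Calls repeated between lists make the range over lists narrower than that of independent replicates.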
